A study of Homo sapiens with 9 samples.

Results

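The cytostatic genes of TGF-β are described here in LX-2, a human line of immortalised hepatic stellate cells. The set was given by symbol and held 10 genes, CDKN2B, CDKN1A, CDKN1B, CDKN1C, ID1, ID2, ID3, MYC, CDC25A and CCND1, all 10 of which were found among the 20777 genes counted and passed the filter on low counts that left 13384 genes to test. Each value comes from bulk RNA sequencing of 9 libraries in 3 groups of 3: cells whose labels name no treatment (control group), cells labelled as treated with TGF-β at day 1 (TGF-β group) and cells labelled as treated with TGF-β and uridine at day 1 (TGF-β + uridine group). By the study's methods the cells of both treated groups received TGF-β first, and in the uridine group the medium was then replaced with medium containing uridine. All groups are the same cell line, with the genotype given as "wide type", and no label says whether the 3 libraries of a group were separate cultures, so p-values measure only the spread between these libraries, which may be technical.

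TGF-β is known as a growth inhibitor of epithelial and many other cells. In that response the receptor-activated factors SMAD3 and SMAD4 raise the transcription of CDK inhibitors such as CDKN2B and CDKN1A and lower that of MYC, the ID genes and CDC25A, which together holds cells in the G1 phase of the cell cycle. In fibroblasts and stellate cells the same ligand is best known for raising matrix and contractile genes, and whether it slows, leaves or speeds division depends on the cell. Here the comparison of TGF-β with control addresses the activation of the line by TGF-β. That of TGF-β + uridine with TGF-β addresses the addition of uridine together with its change of medium. The study's methods do not say whether the medium of the TGF-β group was also replaced, or whether the new medium held TGF-β. An action of uridine and one of the medium change therefore cannot be told apart.

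CDKN2B was the only gene of the set that passed the test with TGF-β in the model of all 9 libraries, 1 of 10 beside 2.42% of all genes tested that rose and 0.964% that fell. It rose 4.98-fold with TGF-β and was 3.01-fold above control with TGF-β + uridine, and CDKN1A rose 1.74-fold in the second of these comparisons and had a fold change of 1.68 in the first that did not pass the test. MYC, the ID genes and CDC25A, which are known to fall in the cytostatic response, did not pass the test in any comparison of this model. The log2 fold changes with TGF-β were -0.05 ± 0.09 for MYC, -0.19 ± 0.15 for ID1 and 0.00 ± 0.11 for CDC25A (SE, 3 libraries against 3). These values are levels over a whole culture, in which fewer cells of a type and less RNA per cell cannot be told apart.

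The libraries were of like depth, with 40539751 to 41467124 counted reads, but not of like composition. The slope of log2 CPM (counts scaled to the library total and normalized by the TMM method) on the GC fraction of the genes ran from -4.10 in control replicate 3 to 5.65 in control replicate 1, against -0.32 to 0.54 in the TGF-β group and -2.69 to 2.28 in the TGF-β + uridine group. Of 13 stellate cell and fibroblast markers listed, 8 had a mean of at least 1 FPKM (fragments scaled to gene length and library total), among them VIM, TIMP1 and THY1, whereas COL1A2, LUM and DCN were at or below 0.292 FPKM in every library, COL1A2 at or below 0.00475 FPKM, and PDGFRA and LRAT were not analysed here. The 4 of 7 hepatocyte markers that were listed summed to at most 0.107 FPKM, and the 3 of 6 endothelial markers to at most 0.417 FPKM. ALB, APOB, TTR, KDR, STAB2 and LYVE1 were not analysed here, so these sums lack them. Of the 5 epithelial markers KRT7 alone was high, and their sum was 596 to 803 FPKM in control, 1130 to 1180 FPKM with TGF-β and 833 to 974 FPKM with TGF-β + uridine, with EPCAM at most at 0.0784 FPKM. Of the 6 of 8 leukocyte markers that were listed, CD68 alone was above 1 FPKM, and their sum was 17.0 to 22.9 FPKM. The stellate cell and fibroblast markers summed to 714 to 808 FPKM in control, 1170 to 1190 FPKM with TGF-β and 1070 to 1080 FPKM with TGF-β + uridine. Both of these sums thus took the same order over the groups as CDKN2B, and the part of either in the results was not tested.

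The promoters of 3 CDK inhibitors are shown because the calls within this class differed in the model of all 9 libraries: CDKN2B and CDKN1A rose in at least 1 comparison and CDKN1B passed the test in none. The genes were not tested against each other, and the part of these sequences in their levels was not tested. Each is the 250 bases before the gene's start, 5′ to 3′ on the gene's own strand, from RefSeq on build GRCh38.p14, at chr9:22009306-22009555 (minus strand) for CDKN2B, chr6:36678464-36678713 (plus strand) for CDKN1A and chr12:12717118-12717367 (plus strand) for CDKN1B. The starts are those of RefSeq. The GENCODE gene begins further upstream at all 3, for CDKN2B within the window shown. Capitals mark the GC box, GGGCGG on either strand, to which SP1-type factors bind.
CDKN2B: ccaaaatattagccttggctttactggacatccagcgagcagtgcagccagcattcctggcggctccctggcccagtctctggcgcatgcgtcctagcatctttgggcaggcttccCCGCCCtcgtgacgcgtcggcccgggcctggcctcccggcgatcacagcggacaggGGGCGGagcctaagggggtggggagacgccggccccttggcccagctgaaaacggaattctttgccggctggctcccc
CDKN1A: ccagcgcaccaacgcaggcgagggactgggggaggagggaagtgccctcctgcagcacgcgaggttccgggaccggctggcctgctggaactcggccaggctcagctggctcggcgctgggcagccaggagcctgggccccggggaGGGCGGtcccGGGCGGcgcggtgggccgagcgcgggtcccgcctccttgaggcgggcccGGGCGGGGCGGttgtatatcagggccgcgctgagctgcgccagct
CDKN1B: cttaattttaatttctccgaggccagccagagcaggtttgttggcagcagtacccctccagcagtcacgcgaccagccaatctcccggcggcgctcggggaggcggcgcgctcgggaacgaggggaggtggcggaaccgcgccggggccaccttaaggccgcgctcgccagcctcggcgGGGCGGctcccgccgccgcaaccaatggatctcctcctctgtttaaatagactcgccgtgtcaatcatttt
The CDKN2B window held 2 GC boxes, which began 134 and 78 bases before the start. That of CDKN1A held 4, at 104, 94, 45 and 40 bases, the last pair overlapping, and that of CDKN1B held 1, at 71 bases. A GC box was found in 42.64% of 35116 human promoters of this length. The SMAD box CAGAC, found on either strand in 38.0% of these promoters, was in none of the 3 windows, nor was the GC-rich SMAD site GGCGCC (16.38%), the E-box CACGTG of MYC and MAX (6.34%) or the TATA box TATAAA (10.72%). Promoters of 7 of the 10 genes were searched. Among the other 4, ID1, ID2 and CDC25A held 2 GC boxes each and ID1 also 2 matches of the TATA box. ID3 held a SMAD box at 147 bases, and CDC25A the GC-rich SMAD site at 41 bases. A match is a run of letters in this window and not a measured site.

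CDKN2B (ENSG00000147883, chr9:22002903-22009363, minus strand, GRCh38 with GENCODE v29) encodes an inhibitor of CDK4 and CDK6, the kinases that partner the D-type cyclins. Its level was 9.86, 12.1 and 14.6 CPM in the 3 control libraries, 61.0, 60.3 and 61.4 CPM in the TGF-β libraries and 35.3, 35.6 and 39.5 CPM in the TGF-β + uridine libraries. The 3 groups did not overlap: control lay lowest, TGF-β highest and TGF-β + uridine between them, and the spread within each group was small beside the gaps. The log2 fold change was 2.32 ± 0.15 for TGF-β against control (SE, edgeR adjusted p = 7.4e-05) and 1.59 ± 0.15 for TGF-β + uridine against control (edgeR adjusted p = 4.7e-04). Between TGF-β + uridine and TGF-β it was -0.73 ± 0.14, 36.8 against 60.9 CPM, with an unadjusted p of 6.5e-04 that did not pass after adjustment over all genes (edgeR adjusted p = 0.169). This last value passed in 4 of 12 other settings, among them DESeq2 (adjusted p = 0.00349) and a fit of only the 6 libraries compared (adjusted p = 0.0036), and failed in the rest, limma included (adjusted p = 0.112 to 0.201). Of the 9 fits with 1 library left out it passed in 1, without control replicate 1 (adjusted p = 0.00649), and the others gave up to 0.722. The antisense gene CDKN2B-AS1, whose exons do not overlap those of CDKN2B, had 22 to 72 reads per library against 333 to 2521 for CDKN2B.

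CDKN1A (ENSG00000124762, chr6:36676460-36687339, plus strand) encodes a broad inhibitor of cyclin-CDK complexes and is also the best-known target of p53. It was at 152, 97.6 and 88.1 CPM in control, at 199, 188 and 180 CPM with TGF-β and at 192, 214 and 182 CPM with TGF-β + uridine. Every library of both treated groups lay above every control library, with control replicate 1 the highest of its group. The log2 fold change with TGF-β was 0.75 ± 0.19 and did not pass the test (edgeR adjusted p = 0.0783), that of TGF-β + uridine against control was 0.80 ± 0.19 and passed narrowly (edgeR adjusted p = 0.0451), and that of TGF-β + uridine against TGF-β was 0.05 ± 0.19 (edgeR adjusted p = 0.994). The first passed in 7 of 12 other settings, among them DESeq2 (adjusted p = 0.037), upper-quartile normalization (adjusted p = 0.0435) and limma on log2(FPKM + 1) (adjusted p = 7.0e-04). The second did not pass with RLE normalization (adjusted p = 0.0695) or with only the 6 libraries compared (adjusted p = 0.159), nor in 8 of 9 fits with 1 library left out (adjusted p up to 0.184). Without control replicate 1 the first became 1.02 (adjusted p = 1.9e-04) and the second 1.06 (adjusted p = 1.4e-04). Of 14 other p53 targets 1 rose with TGF-β and 0 fell, beside 2.42% and 0.964% of all genes tested. The gene that rose was TP53I3, a quinone oxidoreductase, by 1.63 on the log2 scale (edgeR adjusted p = 0.00512). The median of the list was -0.33 against -0.05 over all genes tested.

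CDKN1C (ENSG00000129757, chr11:2883213-2885773, minus strand), an imprinted gene, encodes a relative of the CDKN1A product. It was at 36.8, 30.6 and 26.9 CPM in control, at 43.1, 43.2 and 44.4 CPM with TGF-β and at 24.6, 29.5 and 25.1 CPM with TGF-β + uridine. The TGF-β libraries lay above all 6 others, while control and TGF-β + uridine overlapped. The log2 fold change was 0.47 ± 0.14 with TGF-β (edgeR adjusted p = 0.129), -0.72 ± 0.14 for TGF-β + uridine against TGF-β (unadjusted p = 5.4e-04, edgeR adjusted p = 0.167) and -0.25 ± 0.14 for TGF-β + uridine against control (edgeR adjusted p = 0.423). None of the 3 passed in the model of all 9 libraries. The difference with uridine passed in 7 of 12 other settings, among them DESeq2 (adjusted p = 0.012), and in 1 of 9 fits with 1 library left out, the one without control replicate 1 (adjusted p = 0.00907). That of TGF-β against control passed in 5 of 12, among them limma on log2(FPKM + 1) (adjusted p = 0.0015), and without control replicate 1 (adjusted p = 0.00844), and that of TGF-β + uridine against control in 5 of 12 and in none of the 9.

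CDKN1B (ENSG00000111276, chr12:12715058-12722371, plus strand), the third gene of that family, encodes an inhibitor whose protein is controlled mainly by its breakdown. It had the widest spread of the 4 inhibitors: 16.4, 34.5 and 43.0 CPM in control, 18.3, 23.4 and 21.6 CPM with TGF-β and 20.7, 13.6 and 18.6 CPM with TGF-β + uridine. Control replicate 1 lay within the treated range and the other control libraries above it, so that the groups overlapped in each comparison. The log2 fold change was -0.57 ± 0.32 with TGF-β (edgeR adjusted p = 0.593), -0.26 ± 0.32 for TGF-β + uridine against TGF-β (edgeR adjusted p = 0.953) and -0.83 ± 0.32 for TGF-β + uridine against control (edgeR adjusted p = 0.208). Without control replicate 1 the first and the last were -0.88 (adjusted p = 0.0173) and -1.16 (adjusted p = 0.00349). These 2 comparisons also passed in 2 of 12 other settings each, both of them edgeR with the GC slope of the library as a covariate. Without the replicate number as a block the edgeR adjusted p was 0.00522 and 1.0e-04, and with it 0.0104 and 4.6e-04. The fit without the block called 20.3% and 31.1% of all genes tested.

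**Figure D1:**
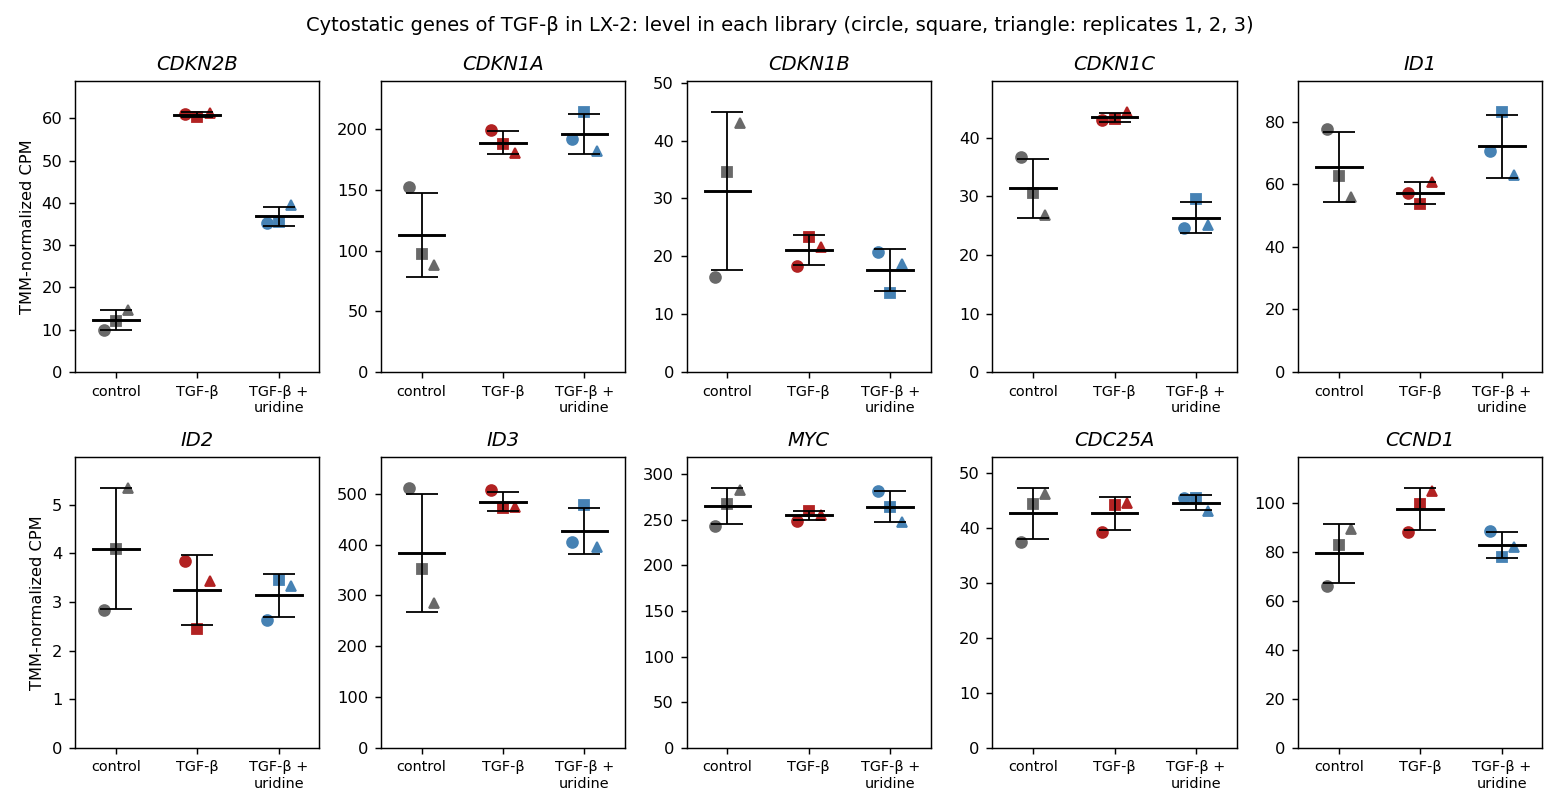
Level of each of the 10 cytostatic genes in each library, in TMM-normalized CPM on a linear axis from 0; the groups are control, TGF-β and TGF-β + uridine, each point is 1 library, and the bars give the mean and SD of 3 libraries. CDKN2B lies at 9.86 to 14.6 CPM in control, at 60.3 to 61.4 CPM with TGF-β and at 35.3 to 39.5 CPM with TGF-β + uridine, whereas the groups overlap for MYC, CDC25A, CCND1, CDKN1B, ID2 and ID3.

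Because FPKM values divide by gene length, they allow levels to be set side by side between genes. They are not corrected for GC content, in which these libraries differed, so shares and ranks between genes are approximate. CDKN1B, for one, ran from 5.57 to 20.6 FPKM within control. The 4 inhibitors summed to 69.2 ± 5.17 FPKM in control (SD, n = 3), 108 ± 0.806 FPKM with TGF-β and 96.7 ± 2.44 FPKM with TGF-β + uridine. CDKN1A was the largest part in each group, at 53.0% ± 9.88, 57.5% ± 1.81 and 68.3% ± 2.05 of the sum. Its control range of 45.4% to 64.2% held that of TGF-β, 55.9% to 59.5%. CDKN2B made up 4.48% ± 1.27 of the sum in control (range 3.14% to 5.66%), 14.0% ± 0.357 with TGF-β and 9.71% ± 1.05 with TGF-β + uridine (range 8.83% to 10.9%), and these 3 ranges did not overlap. In the order of mean FPKM over the 10 genes CDKN2B was last in control, at 3.14 FPKM, next to ID2 at 3.28 FPKM, from which its range did not separate it. It had rank 7 of 10 with TGF-β, at 15.1 FPKM, where its range overlapped neither neighbour, CDKN1C at 22.2 FPKM and CDC25A at 11.0 FPKM. With TGF-β + uridine it had rank 8, at 9.41 FPKM, and overlapped CDKN1B at 7.49 FPKM.

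The remaining CDK inhibitors, outside the set, did not pass the test in any comparison. CDKN2A, which lies beside CDKN2B and also encodes the p53-stabilising ARF protein, had 445, 529 and 536 CPM on average in control, TGF-β and TGF-β + uridine, a log2 fold change with TGF-β of 0.25 (edgeR adjusted p = 0.804). The further members of the CDK4 and CDK6 inhibitor family, CDKN2C and CDKN2D, had log2 fold changes with TGF-β of -0.25 (edgeR adjusted p = 0.452) and 0.21 (edgeR adjusted p = 0.955). CDKN3, a phosphatase that acts on CDKs, had -0.07 (edgeR adjusted p = 0.996). ID4, on the same list, was not analysed here.

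The ID genes encode proteins that bind E proteins, the partners of tissue-specific bHLH factors, and keep them from DNA. They respond to BMP through SMAD1 and SMAD5, and in epithelial cells TGF-β is known to lower them. ID3 (ENSG00000117318, chr1:23557918-23559794, minus strand) was by far the most abundant of the 10 genes, at 392 ± 47.0 FPKM in control, 505 ± 11.2 FPKM with TGF-β and 454 ± 13.1 FPKM with TGF-β + uridine (SD, n = 3), and made up 87.4%, 91.2% and 88.0% of the summed FPKM of the 3 ID genes. In CPM it was at 512, 353 and 286 in control, 507, 473 and 474 with TGF-β and 406, 479 and 395 with TGF-β + uridine. Control replicate 1 was above every other library and the other control libraries below all treated ones. The log2 fold change was 0.34 ± 0.19 with TGF-β (edgeR adjusted p = 0.613), -0.18 ± 0.19 with uridine beside TGF-β (edgeR adjusted p = 0.921) and 0.15 ± 0.19 for both against control (edgeR adjusted p = 0.835). For TGF-β against control it was above 0 in all 12 other settings and all 9 fits with 1 library left out. It passed in 4 of the 12, among them edgeR with the GC slope of the library as a covariate (adjusted p = 1.5e-05). Of the 9 it passed in 1, without control replicate 1, where the value was 0.60 (adjusted p = 0.0135). The other 2 comparisons passed in 2 of 12 settings each, this covariate without and with the replicate number as a block. The fit with the covariate and no block called 20.3%, 19.1% and 31.1% of all genes tested in the 3 comparisons.

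ID1 (ENSG00000125968, chr20:31605283-31606515, plus strand) was at 77.8, 62.7 and 56.0 CPM in control, 57.3, 53.8 and 60.7 CPM with TGF-β and 70.6, 83.1 and 63.0 CPM with TGF-β + uridine. The TGF-β + uridine libraries lay above the TGF-β libraries, and both overlapped control. The log2 fold change was -0.19 ± 0.15 with TGF-β (edgeR adjusted p = 0.813), 0.34 ± 0.15 for TGF-β + uridine against TGF-β (edgeR adjusted p = 0.57) and 0.14 ± 0.15 for TGF-β + uridine against control (edgeR adjusted p = 0.772). On the deposited FPKM scale, which has no TMM factor, control was at 52.2 to 53.1, TGF-β at 43.8 to 50.0 and TGF-β + uridine at 55.7 to 63.2 FPKM, with no overlap. The limma test on log2(FPKM + 1) gave ID1 an adjusted p of 0.167 for TGF-β against control and of 0.027 for TGF-β + uridine against TGF-β, at 0.36 on that scale. ID2 (ENSG00000115738, chr2:8678845-8684453, plus strand) was the lowest ID gene, with 96 to 255 reads per library and 4.10 ± 1.25, 3.24 ± 0.721 and 3.14 ± 0.447 CPM in the 3 groups (SD, n = 3). Its groups overlapped throughout, and its log2 fold changes of -0.34 ± 0.29, -0.05 ± 0.29 and -0.39 ± 0.29 did not pass the test (edgeR adjusted p = 0.858, 0.999 and 0.617). The antisense gene ID2-AS1 overlaps its exons and had 0 to 14 reads, and the strand setting of the counting was not given in the sources used here.

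The partners of the ID proteins and the BMP branch were read from lists. None of the 3 E protein genes passed the test in any comparison. Of 13 genes tested for BMP-type SMAD targets and inputs, 1 rose and 1 fell with TGF-β, beside 2.42% and 0.964% of all genes tested. With TGF-β + uridine against control 2 were higher and 1 lower, beside 2.89% and 2.44%. NOG, a secreted BMP antagonist, rose by 1.54 on the log2 scale (edgeR adjusted p = 0.0168) from a low level of 0.347 to 1.02 CPM, and ATOH8, a bHLH factor downstream of BMP, fell by 2.77 (edgeR adjusted p = 0.0012) from 3.55 to 0.517 CPM. With TGF-β + uridine against control NOG rose by 1.86 and SMAD7, an inhibitory SMAD, by 0.98, and ATOH8 was at -1.94 (edgeR adjusted p = 0.00588, 0.0185 and 0.00574). SMAD7 is also on the list of direct SMAD3 targets below, so its call is counted in both lists.

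MYC (ENSG00000136997) encodes the growth-promoting transcription factor that represses CDKN2B and CDKN1A in growing cells. It was at 243, 267 and 283 CPM in control, 249, 260 and 255 CPM with TGF-β and 281, 264 and 247 CPM with TGF-β + uridine. The ranges of the 3 groups overlapped. The log2 fold changes were -0.05 ± 0.09 with TGF-β (edgeR adjusted p = 0.982), 0.05 ± 0.09 for TGF-β + uridine against TGF-β (edgeR adjusted p = 0.99) and 0.00 ± 0.09 for TGF-β + uridine against control (edgeR adjusted p = 0.997), the smallest standard errors of the 10 genes. Over the fits with 1 library left out the value with TGF-β ranged from -0.12 to 0.00, and it passed in none of them. MYC was also among the 4 highest of the 10 genes in FPKM in every group, at 59.3, 55.9 and 59.3 FPKM. Of 16 genes known to be raised by MYC none passed the test in any comparison, with medians of -0.07, 0.13 and 0.08. Of the 10 listed genes of the MYC network 1 fell with TGF-β + uridine against control, beside 2.44% of all genes tested. This was MYCL, a MYC relative, which fell by 1.42 (edgeR adjusted p = 0.017), from 2.99 to 1.11 CPM.

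CDC25A (ENSG00000164045, chr3:48157146-48188402, minus strand) encodes the phosphatase that frees CDKs of inhibitory phosphate. It was at 37.5, 44.4 and 46.3 CPM in control, 39.3, 44.2 and 44.7 CPM with TGF-β and 45.5, 45.6 and 43.1 CPM with TGF-β + uridine, and the groups overlapped. Its log2 fold changes were 0.00 ± 0.11, 0.07 ± 0.11 and 0.07 ± 0.11 (edgeR adjusted p = 1, 0.985 and 0.895). CCND1 (ENSG00000110092, chr11:69641087-69654474, plus strand) encodes cyclin D1, the partner of CDK4 and CDK6 that mitogens raise. It was at 66.2, 82.9 and 89.4 CPM in control, 88.2, 99.8 and 105 CPM with TGF-β and 88.5, 78.0 and 82.3 CPM with TGF-β + uridine. The TGF-β libraries overlapped control only through control replicate 3, at 89.4 CPM. The log2 fold changes were 0.30 ± 0.13 with TGF-β (unadjusted p = 0.0483, edgeR adjusted p = 0.403), -0.24 ± 0.13 for TGF-β + uridine against TGF-β (edgeR adjusted p = 0.699) and 0.06 ± 0.13 for TGF-β + uridine against control (edgeR adjusted p = 0.921). The first 2 of these passed in 2 of 12 other settings each, both of them edgeR with the GC slope of the library as a covariate. Without the replicate number as a block the edgeR adjusted p was 0.00508 and 0.0174, and with it 0.0177 and 0.0465. The fit without the block called 20.3% and 19.1% of all genes tested. LTO1 overlaps the exons of CCND1 on the other strand and had 233 to 330 reads against 2235 to 4312.

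Of the cell cycle genes around the set E2F2 alone passed the test. None of the 9 genes for G1 cyclins, CDKs and CDC25 phosphatases did in any comparison. CDK4 was at 317 ± 102, 296 ± 8.92 and 313 ± 37.9 CPM and CDK2 at 99.7 ± 4.31, 97.4 ± 1.1 and 92.3 ± 1.48 CPM in the 3 groups (SD, n = 3). None of the 15 S-phase genes regulated by E2F did, with medians of -0.08, -0.13 and -0.19, and none of the 10 mitosis and proliferation markers, with medians of 0.01, 0.05 and 0.03. MKI67, the antigen that marks dividing cells, averaged 118 ± 52.1, 135 ± 5.32 and 102 ± 26.6 CPM (SD, n = 3). Its log2 fold change for TGF-β + uridine against TGF-β was -0.40 ± 0.31 (SE, edgeR adjusted p = 0.834). That of TOP2A, on the same list, was 0.85 ± 0.76 (SE, edgeR adjusted p = 0.876). For such genes these tests could not tell a change of this size from none. Of 12 tested genes for RB proteins and E2F factors 1 fell with TGF-β and 1 with TGF-β + uridine against control, beside 0.964% and 2.44% of all genes tested. In both this was E2F2, an activating E2F. It fell by 0.55 with TGF-β (edgeR adjusted p = 0.0334) and was at -0.58 with TGF-β + uridine against control (edgeR adjusted p = 0.0217).

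In counts, TGF-β against control raised 1 and lowered 0 of the 10 cytostatic genes, beside 2.42% and 0.964% of all 13384 genes tested, and the median log2 fold change of the 10 was 0.15 beside -0.05 over all genes. CDKN1A, CDKN1C and CDKN2B had groups that did not overlap in CPM, 3 of 10 beside 17.7% of all genes. TGF-β + uridine against TGF-β raised and lowered 0 of the 10, beside 0.0% and 0.0448% of all genes, with 2 of the 10 at an unadjusted p under 0.05, beside 8.79% of all genes. By DESeq2 it was 2 of the 10, beside 0.564% of 20746 genes. That number was not cut by the filter on low counts, so this share is not like the others. The median was -0.11 beside 0.02, and 3 of 10 did not overlap, CDKN2B and CDKN1C lower and ID1 higher, beside 25.6% of all genes. TGF-β + uridine against control raised 2 and lowered 0, beside 2.89% and 2.44%. The median was 0.06 beside -0.01, and CDKN1A and CDKN2B did not overlap, 2 of 10 beside 19.7%. The 3 comparisons share libraries by pairs and are not independent of each other. An exact permutation test of 3 libraries against 3 cannot give a two-sided p below 0.1, which is the value of each gene whose groups did not overlap.

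**Figure D2:**
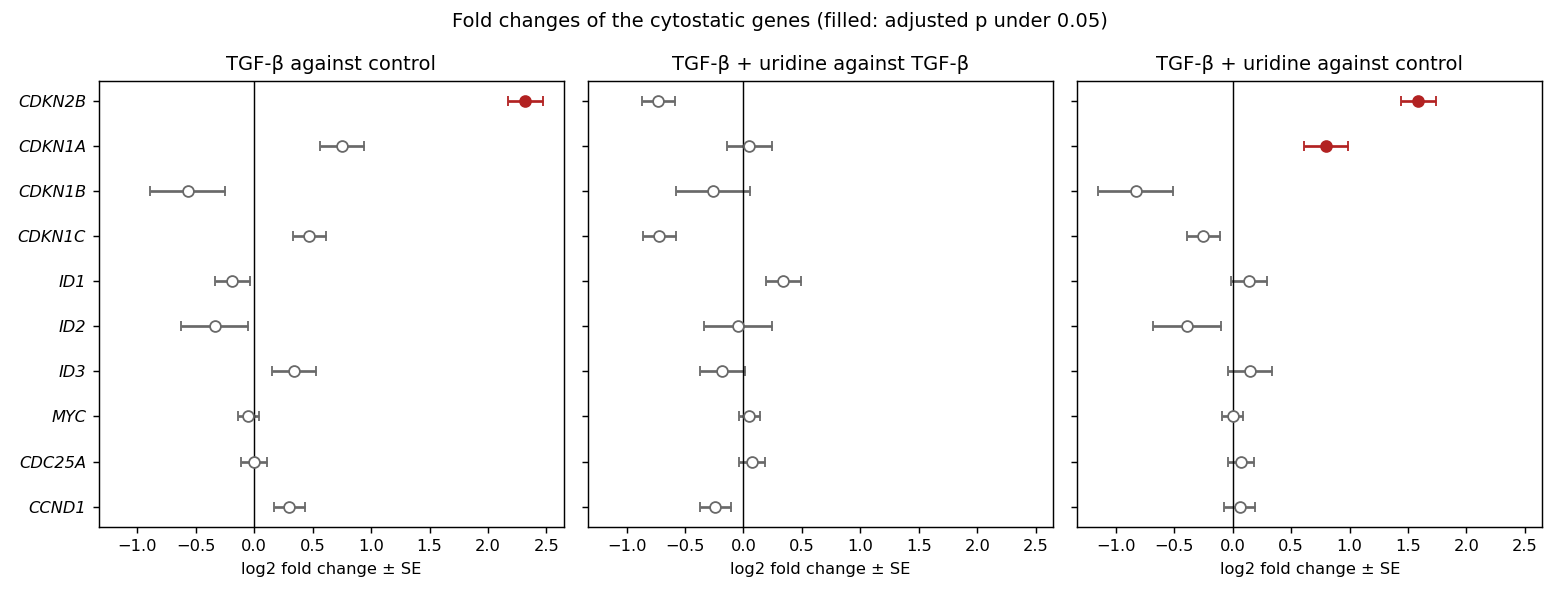
Log2 fold change (horizontal axis) of the 10 cytostatic genes in the 3 comparisons, from the edgeR model of all 9 libraries; bars are standard errors, and filled points have an adjusted p under 0.05. CDKN2B is filled in the first comparison (2.32) and the last (1.59), CDKN1A in the last alone (0.80), and no gene is filled for TGF-β + uridine against TGF-β.

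Genes known as direct SMAD3 targets show what TGF-β did elsewhere in the same libraries. Of 8 such genes 6 rose with TGF-β and 7 with TGF-β + uridine against control, beside 2.42% and 2.89% of all genes tested. Their medians were 2.22 and 1.85. TGFBI, a matrix protein, rose by 2.84 from 312 to 2240 CPM, CCN2, a matricellular protein, by 2.78 from 1.00 to 6.97 CPM, and PMEPA1, an inhibitor of TGF-β signalling, by 2.59 from 39.1 to 235 CPM. At 2.32 CDKN2B lay between the median of these genes and the value of PMEPA1. None of the 8 passed for TGF-β + uridine against TGF-β, with a median of -0.21.

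The nuclear partners with which SMADs are known to act on the cytostatic genes gave 1 call higher and 1 lower of 13 tested with TGF-β, beside 2.42% and 0.964% of all genes, and 0 and 2 with TGF-β + uridine against control, beside 2.89% and 2.44%. KLF10, a repressor that TGF-β induces early, rose by 0.60 with TGF-β (edgeR adjusted p = 0.0475). FOXO4, a factor of the FOXO family, which helps to raise CDKN2B and CDKN1A, fell by 1.07 with TGF-β, from 9.73 to 4.63 CPM (edgeR adjusted p = 0.0114), and by 2.0 with TGF-β + uridine against control (edgeR adjusted p = 4.9e-04). SMAD3 itself had a log2 fold change with TGF-β of -0.45 (edgeR adjusted p = 0.0783) and fell by 0.50 with TGF-β + uridine against control (edgeR adjusted p = 0.0384).

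**Figure D3:**
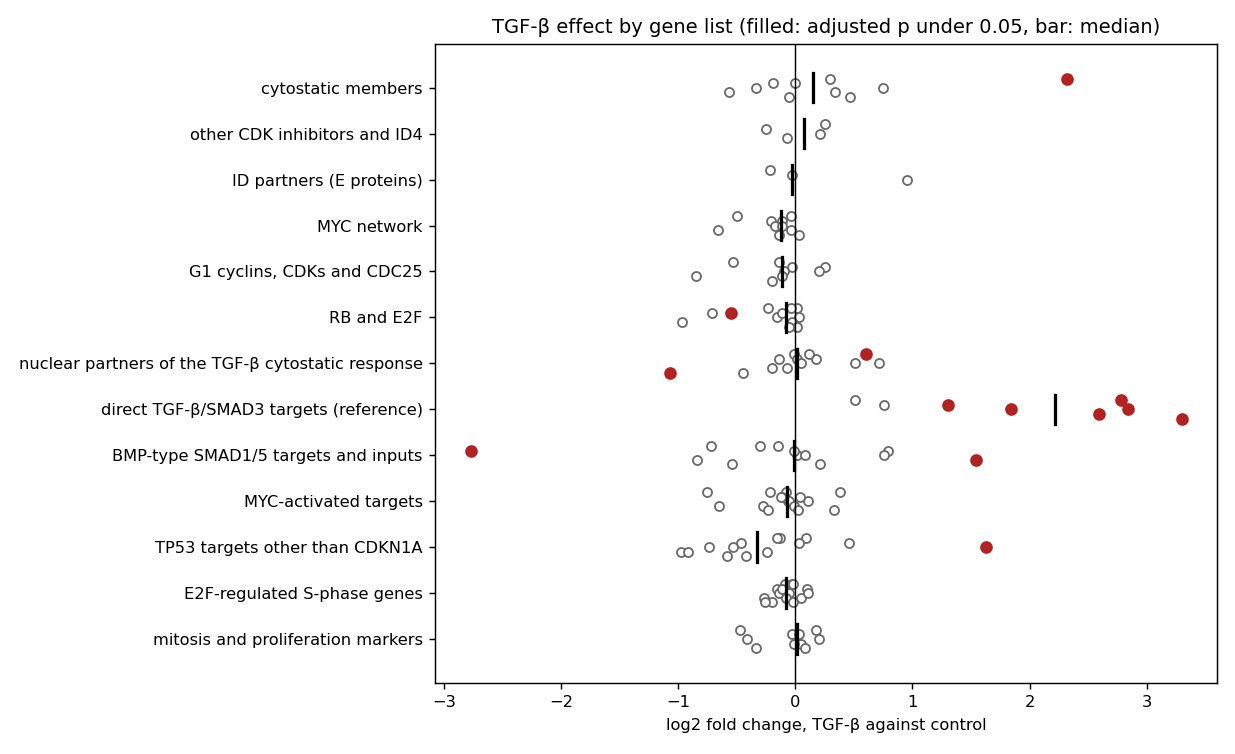
Log2 fold change of TGF-β against control (horizontal axis) for each tested gene of the cytostatic set and of 12 related lists; filled points have an edgeR adjusted p under 0.05 and black bars are list medians. CDKN2B, at 2.32, is the filled point of the cytostatic set and lies within the range of the direct SMAD3 targets, whose median is 2.22, while the lists of MYC targets, S-phase genes and mitosis markers have no filled point.

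The genes whose log2 CPM most resembled that of the called members over the 9 libraries were CCN1, TUFT1 and LOX for CDKN2B, with Pearson correlations of 0.991, 0.991 and 0.988, and HCN2, ZYX and GPX3 for CDKN1A, at 0.996, 0.994 and 0.991. They are given as a description, since the 9 libraries share their 3 groups and the differences in composition between them. CCN1, a matricellular protein of the CCN family, averaged 42.2, 126 and 91.2 CPM in control, TGF-β and TGF-β + uridine, and LOX, which crosslinks collagen, 6.86, 28.3 and 21.6 CPM. ZYX, a focal adhesion protein, averaged 361, 593 and 603 CPM.

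Within the control group the members moved with the GC slope of the library, in directions that went with their own base composition. The slope was itself fitted to the log2 CPM of all genes with GC content, the members among them. This pattern is therefore a description and not a separate test. In control replicate 1, the library with a slope of 5.65, CDKN1B lay 0.82 below its group mean on the log2 scale, ID2 0.47 below, CDKN2B 0.29 below, CCND1 0.25 below, CDC25A 0.18 below and MYC 0.12 below. The longest transcripts of these 6 genes hold 44.6% to 53.9% GC. In the same library CDKN1A lay 0.48, ID3 0.46, ID1 0.26 and CDKN1C 0.24 above, and those transcripts hold 57.2% to 63.8% GC. In control replicate 3, with a slope of -4.10, each of the 10 genes lay on the other side of its mean. Deviations within a group sum to 0, so these 2 libraries are not independent. In the TGF-β + uridine library with a slope of 2.28 the pattern was not kept by all genes. There ID2 lay 0.14 and CDC25A 0.03 above and MYC at 0.00, with CDKN1B 0.35, CCND1 0.09 and CDKN2B 0.05 below. CDKN1A, ID3, ID1 and CDKN1C lay 0.13, 0.17, 0.21 and 0.17 above. The part of this in the comparisons was not tested beyond a fit with the slope as a covariate, in which 6, 5 and 6 of the 10 genes passed in the 3 comparisons, beside 20.3%, 19.1% and 31.1% of the 13384 genes tested. In that fit CDKN2B had log2 fold changes of 2.32, -0.74 and 1.58, close to those without the covariate, and MYC had -0.06 and 0.05 with TGF-β and with uridine and passed in no comparison. The other genes that passed with TGF-β were CDKN1A, CDKN1C, ID3 and CCND1, which were higher, and CDKN1B, which was lower. For TGF-β + uridine against TGF-β they were CDKN1C, ID3 and CCND1, which were lower, and ID1, which was higher.

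**Figure D4:**
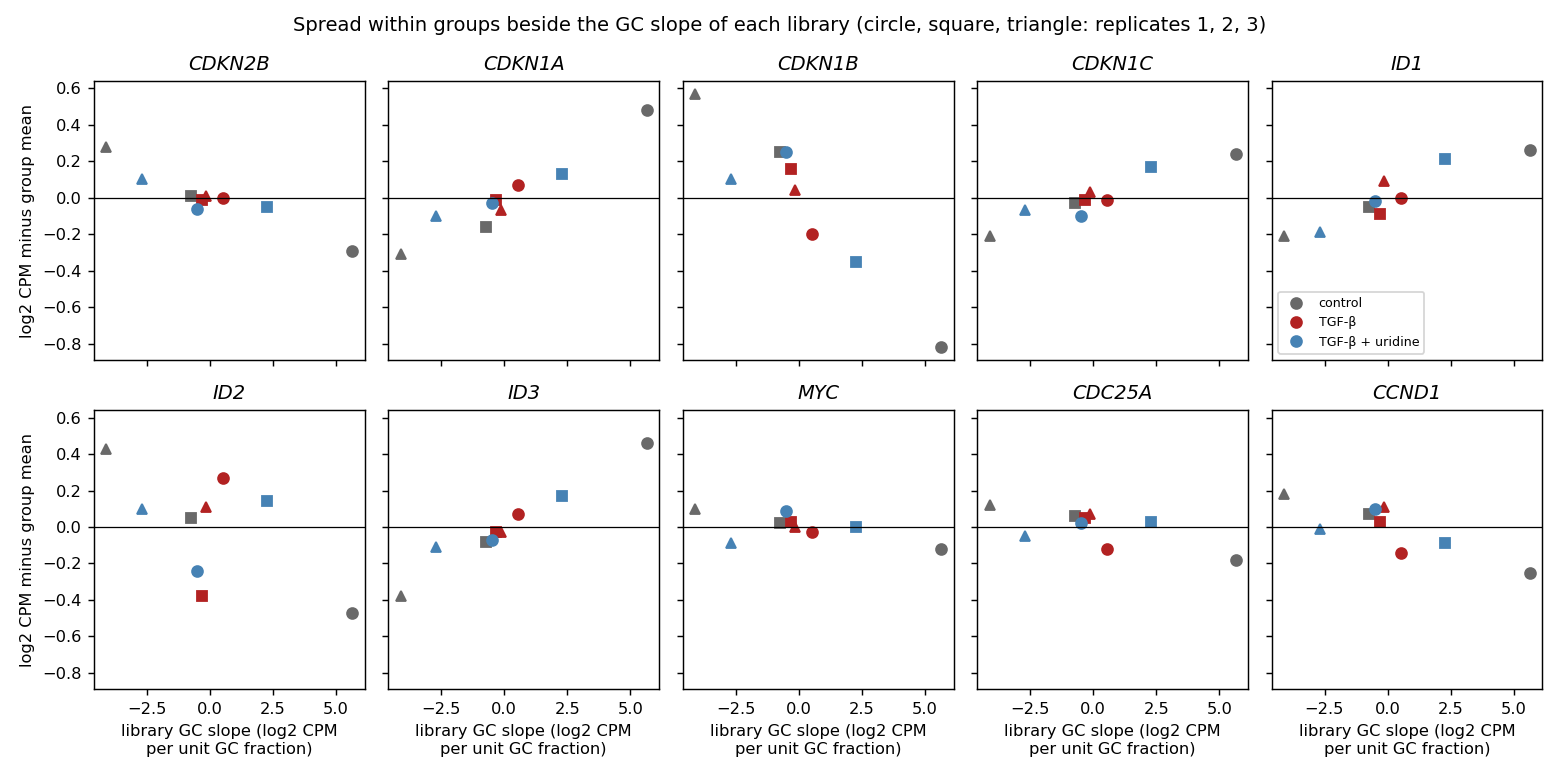
Deviation of each library from its group mean in log2 CPM (vertical axis) against the slope of that library's log2 CPM on gene GC fraction (horizontal axis), for the 10 cytostatic genes; colours give the group and shapes the replicate. The control library at a slope of 5.65 lies at -0.82 for CDKN1B and 0.48 for CDKN1A, and the control library at -4.10 lies on the other side, at 0.57 and -0.31.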

How the data were processed

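RNA of 9 LX-2 libraries was analysed, 3 per group. The treated groups were taken from the treatment labels, and the control group and the replicate numbers from the sample titles. The authors deposited a table of raw read counts, whole numbers by gene symbol, and a table of FPKM values of the same genes, which are normalized to library total and gene length. The submitters' processing notes name fastp, HISAT2, HTSeq, R 3.2.0 and GRCh38.p13, while the strand setting is not given in the sources used here. Totals of 40539751 to 41467124 counts per library gave each member at least 96 reads in every library, and within groups no 2 libraries agreed within counting noise.

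The counts entered the quasi-likelihood test of edgeR 4.0.16 under R 4.3.3, after filterByExpr and TMM normalization, in 1 model of group over all 9 libraries, with a common biological coefficient of variation of 0.289. All tests were two-sided with Benjamini-Hochberg adjustment across the 13384 genes tested, and genes were called at an adjusted p under 0.05. Standard errors are derived from the quasi-likelihood F statistic. An exact permutation test of CPM (scipy) was added for single genes. DESeq2 1.42.0 and limma 3.58.1 on log2(FPKM + 1) or log2(FPKM + 0.1) were alternatives, beside other normalizations, filters, samples in the fit, the replicate number as a block and the GC slope of each library as a covariate. The slope was fitted on 12319 genes (92%) with GC content from GENCODE v29. The edgeR step was run on simulated counts with 1 spread for all groups and no GC slope, so that run does not cover these features of the libraries. Gene coordinates are from GENCODE v29 on GRCh38, the primary assembly of the authors' build, and promoters were matched by symbol in RefSeq tables of GRCh38.p14.

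All 10 members are named, and from the other lists the genes called in any comparison (up to 4 per list, by the size of the change with TGF-β), the remaining CDK inhibitors, and the 3 genes most correlated with each called member. Proliferation and G1 examples that were not called were chosen after their values were seen. The members and lists were chosen with earlier results of these data known. Results for 2 genes of these lists are not reported here.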

Additional observations from a re-analysis of the deposited data

How the results depend on the processing

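CDKN2B kept its direction and its call for TGF-β and for TGF-β + uridine against control in all 12 other settings and in all 9 fits with 1 library left out, at 2.18 to 2.47 and 1.44 to 1.74 in the latter. The other calls moved with the setting. The cytostatic genes called numbered 1 (TGF-β against control), 0 (TGF-β + uridine against TGF-β) and 2 (TGF-β + uridine against control). They became 2, 2 and 2 with DESeq2, 4, 2 and 3 with limma on log2(FPKM + 1) or log2(FPKM + 0.1), and 3, 2 and 3 with limma without a filter. With the GC slope covariate they were 6, 5 and 6. Upper-quartile normalization gave 2 for the first comparison, RLE normalization 1 for the last, and a fit of only the 2 groups compared 2 for the second and 1 for the last. An absolute log2 fold change of at least 1 left 1 in the last, and unadjusted p-values gave 4, 2 and 3. With 1 library left out the ranges were 1 to 5, 0 to 2 and 1 to 4, and the upper ends came without control replicate 1.

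Over all genes the calls numbered 453, 6 and 714 (324 higher and 129 lower, 0 and 6, 387 and 327). They became 719, 117 and 1103 with DESeq2, 803, 385 and 1421 with limma on log2(FPKM + 1), 793, 378 and 1402 on log2(FPKM + 0.1), 796, 295 and 1364 without a filter, 229, 317 and 222 with only the 2 groups compared, 2715, 2554 and 4162 with the GC slope covariate, and 1623, 1177 and 2360 at an unadjusted p under 0.05. Upper-quartile normalization gave 10 in the second (2 higher and 8 lower), and an absolute log2 fold change of at least 1 left 2 in the second and 422 in the last. With 1 library left out the ranges were 218 to 1085, 0 to 271 and 304 to 2413, and the upper ends came without control replicate 1. The cause of these differences was not tested.

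The deviations of libraries with the same replicate number correlated at -0.21 to 0.56 between groups, so that the numbers were not taken as pairs. With the replicate block 314, 0 and 437 genes and 1, 0 and 2 cytostatic genes were called, and with the block and the GC slope covariate 2340, 2072 and 3756 genes and 6, 5 and 6 cytostatic genes.

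Signs also turned for values that did not pass the test. Those of MYC for TGF-β + uridine against control (-0.02 to 0.03 over the other settings, -0.08 to 0.05 with 1 library left out) and of CDC25A with TGF-β (-0.09 to 0.06 with 1 library left out) lay on both sides of a value of 0.00. With 1 library left out the others ranged from -0.02 to 0.10 for CDKN1A (without TGF-β + uridine replicate 2 at the lowest) and from -0.21 to 0.10 for ID2 (0.07 and 0.10 without replicate 1 of TGF-β + uridine and of TGF-β) with uridine beside TGF-β. For TGF-β + uridine against control they ranged from -0.02 to 0.40 for ID3, from -0.08 to 0.15 for CCND1 and from -0.04 to 0.13 for CDC25A. With 3 libraries per group and 96 reads at the lowest, ID2 is the member whose value depth limits most.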
